A study of Mus musculus with 2 samples.

Results

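The miR-30 family comprised 6 microRNA (miRNA) genes, Mir30a, Mir30b, Mir30c-1, Mir30c-2, Mir30d and Mir30e, of the 1973 miRNA genes in the deposited count tables. They were taken by gene name, with no threshold on a measured value, and each had exactly 1 entry. The study sequenced small RNA from the heart of B6NCrl mouse embryos at 14.5 days of development. There was 1 group of 2 libraries, with no treatment, mutation or control tissue, so no difference between groups exists to be tested and values are given per library. The labels number the libraries as biological replicates 1 and 2, describe each as a single heart from pup 1 of pregnant 2, and date them to 15 and 17 July 2014. They also give both the same donor identifier and a pooled sex, so they do not settle whether each library is 1 animal, and the spread between libraries may be partly technical.

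A miRNA gene is transcribed as part of a longer RNA that folds into a hairpin, and the enzymes Drosha and Dicer cut from it a short duplex whose strands are called the 5p and 3p arms. One arm is loaded into an Argonaute protein and pairs, mainly through its seed near the 5′ end, with messenger RNAs, which are then repressed or degraded. The miR-30 genes share the seed of their 5p arms and lie in pairs at separate loci. In rat heart cells in culture, miR-30 has been shown to repress connective tissue growth factor, a secreted protein of fibrosis.

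The RefSeq sequence table (build GRCm38.p6) held sequences for 4 of the 6 members, Mir30a, Mir30c-1, Mir30c-2 and Mir30e, and had no entry for Mir30b and Mir30d. The mature 5p arms are shown because their shared and differing bases bear on which reads could be assigned to a single gene. Each is written 5′ to 3′ with the seed, bases 2 to 8, in capitals.
miR-30a-5p from Mir30a: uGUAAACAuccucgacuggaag
miR-30e-5p from Mir30e: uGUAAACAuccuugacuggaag
miR-30c-5p from both Mir30c-1 and Mir30c-2: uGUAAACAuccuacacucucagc
All carried the seed GUAAACA, whose perfect match in a target RNA reads UGUUUAC. Counting positions from 1 at the 5′ end, miR-30a-5p and miR-30e-5p differed by the single substitution C13U and were identical at the other 21 of 22 positions. Between miR-30a-5p and miR-30c-5p, 5 of 22 positions differed, C13A, G14C, G18C, G19U and A20C, all of them beyond the seed. miR-30c-5p was the same 23 bases at both of its loci.

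Of the reads assigned to single miR-30 genes, nearly all fell on 3 genes, Mir30e, Mir30a and Mir30d. Reads that mapped to several places are not among them. Mir30e, which lies in an intron of Nfyc, had 36682 CPM in replicate 1 and 31138 CPM in replicate 2. CPM scales the reads of a gene to the library's total over all miRNA genes on the strand that was counted, so that the family's 64326 CPM in replicate 1 is 6.43% of those reads. Mir30a had 16431 and 13549 CPM, and Mir30d had 10833 and 9236 CPM. Among all miRNA genes these 3 stood at ranks 9, 16 and 22 in replicate 1 and 10, 17 and 23 in replicate 2.

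The other 3 members had far lower counts of assigned reads. Mir30b had 893 counts in replicate 1 and 849 in replicate 2, or 206 and 221 CPM. Mir30c-1 had 474 and 453 counts, or 109.5 and 118 CPM. Mir30c-2 had 274 and 240 counts, or 63.3 and 62.5 CPM, with exact Poisson 95% intervals of 56.0 to 71.3 and 54.8 to 70.9. All such intervals describe counting error alone, because the reads carry no molecular identifiers and are not independent molecules. All 6 members passed the minimum of 10 counts in each library that was set for calling a gene detected.

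**Figure D1:**
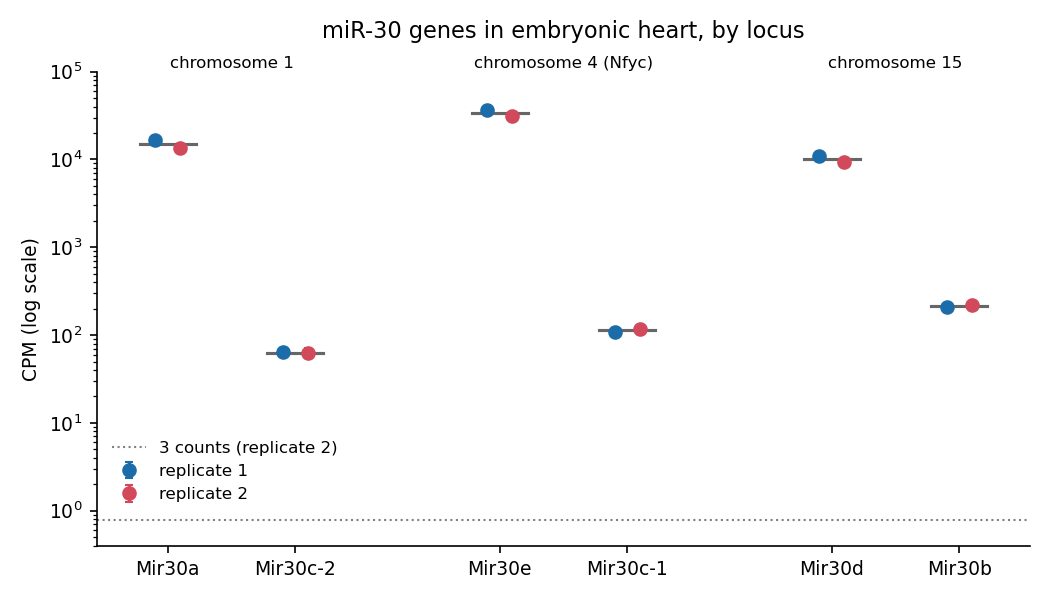
Level of each miR-30 gene in CPM on a log axis, grouped by locus, with 1 point per library, exact Poisson 95% intervals (mostly smaller than the points) and a grey line at the mean. In each pair the left gene lies far above the right, from 33910 against 114 CPM for Mir30e and Mir30c-1 to 10035 against 214 CPM for Mir30d and Mir30b.

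The order Mir30e, Mir30a, Mir30d, Mir30b, Mir30c-1, Mir30c-2 was the same in both libraries, and the ranges of neighbouring members over the libraries did not overlap. The means were 33910 ± 3919.7 CPM for Mir30e (SD, n = 2), 14990.4 ± 2038 for Mir30a and 10035 ± 1129.6 for Mir30d, then 214 ± 10.4 for Mir30b, 114 ± 5.96 for Mir30c-1 and 62.9 ± 0.578 for Mir30c-2. The widest step in this order lay between Mir30d and Mir30b, at 47.1 ± 7.58 times, whereas the other steps lay between 1.49 and 2.27 times. The steps among the 3 lower members were also outside counting error. They compare assigned reads only, and reads that match both miR-30c genes are not among these. Mir30b exceeded Mir30c-1 by 1.88 times (1.68 to 2.11) in replicate 1 and by 1.87 times (1.67 to 2.11) in replicate 2. Mir30c-1 exceeded Mir30c-2 by 1.73 times (1.49 to 2.01) in replicate 1 and by 1.89 times (1.61 to 2.22) in replicate 2. These are exact binomial 95% intervals of the ratio of 2 counts in 1 library.

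As shares of the reads assigned to the family, Mir30e made up 57.2% ± 0.208, Mir30a 25.2% ± 0.426 and Mir30d 16.9% ± 0.113. Together these 3 genes held 99.3% ± 0.106, and Mir30b, Mir30c-1 and Mir30c-2 held 0.664% ± 0.106. The whole family took 6.43% of the assigned reads in replicate 1 and 5.43% in replicate 2.

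**Figure D2:**
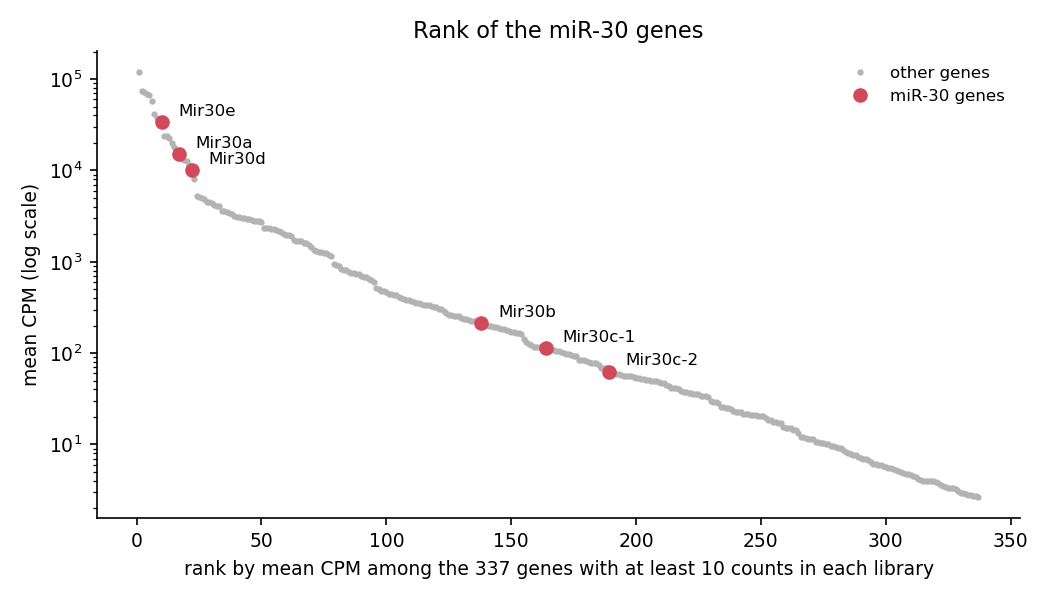
Mean CPM on a log axis against rank for the 337 genes that reached 10 counts in both libraries. The miR-30 genes fall at ranks 10, 17 and 22 (Mir30e, Mir30a, Mir30d) and at ranks 138, 164 and 189 (Mir30b, Mir30c-1, Mir30c-2).

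By mean CPM over the 2 libraries, the genes nearest to each member in level were taken as those next above and next below it. Mir30e followed Mir26b (33998 ± 382 CPM), whose range it overlapped, and stood clear of Mir21a (23749 ± 622). Mir30a lay between Mir99b (15813 ± 665) and Mir17 (13435 ± 897), with overlapping ranges on both sides. Mir30d lay below Mir652 (11425 ± 75.3) without overlap and above Mir208a (7962 ± 2009), the miRNA of the alpha cardiac myosin gene, whose range it overlapped. Mir30b had Mir329 and Mir700 as neighbours, and Mir30c-1 had Mir672 and Mir32, all with overlapping ranges. Mir30c-2 lay just under Mir221 (68.0 ± 1.53) without overlap and overlapped Mir539 (62.3 ± 1.45). Likeness here means level alone, in a single tissue.

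The 6 genes lie at 3 loci, each holding, by assigned reads, 1 abundant and 1 scarce member on the same strand. Mir30e (ENSMUSG00000065409, chr4:120772606-120772697, minus strand, mm10) and Mir30c-1 (ENSMUSG00000065490, chr4:120769534-120769622) lie 2983 bases apart. Both sit in the same 4772-base intron of Nfyc on its strand and overlap no exon of it. Nfyc encodes a subunit of the CCAAT-binding transcription factor NF-Y. Reads of Mir30e outnumbered those of Mir30c-1 by 335 times (306 to 367) in replicate 1 and by 264 times (241 to 290) in replicate 2.

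Mir30a (ENSMUSG00000065405, chr1:23272269-23272339, plus strand) overlaps no other gene of the GENCODE M21 annotation. Mir30c-2 (ENSMUSG00000065567, chr1:23291701-23291784) lies 19361 bases further on, within the exon of the long non-coding RNA Gm27028. Mir30a exceeded Mir30c-2 by 259.5 times (230.5 to 293) in replicate 1 and by 217 times (191 to 247) in replicate 2. The intervals of this ratio in the 2 libraries overlapped, which those of the chromosome 4 pair did not.

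Mir30d (ENSMUSG00000065437, chr15:68341208-68341289, minus strand) lies within an exon of the long non-coding RNA Gm20732. Its hairpin also runs 9 bases into Gm37296, a transcript that the annotation marks as still to be tested by experiment. Mir30b (ENSMUSG00000065476, chr15:68337415-68337510) follows after 3697 bases and shares 16 bases with the non-coding transcript Gm26621. By assigned reads this was the least uneven pair, with Mir30d above Mir30b by 52.5 times (49.1 to 56.2) in replicate 1 and by 41.8 times (39.0 to 44.8) in replicate 2. The other pairs each hold a miR-30c gene, some of whose reads match both miR-30c loci and are left out. Whether the order of the pairs depends on this was not tested.

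**Figure D3:**
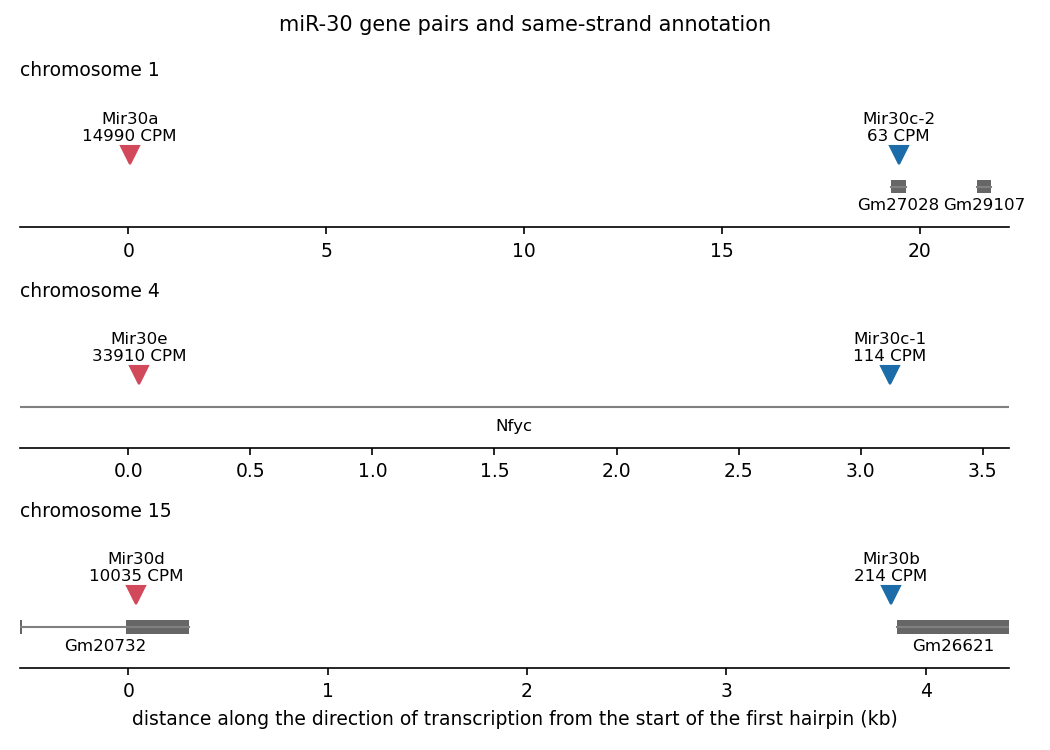
Same-strand annotation of the 3 miR-30 loci, drawn in the direction of transcription, with distance in kb from the start of the first hairpin and grey boxes for exons. Transcripts that the annotation marks as still to be tested by experiment, such as Gm37296, are not drawn. Triangles mark hairpins with their mean CPM, red for the first and blue for the second of each pair, and the first has the higher value at each locus.

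At all 3 loci the member with more assigned reads was the first of its pair in the direction of transcription. It held 99.7% of the pair’s assigned reads in replicate 1 and 99.6% in replicate 2 at the Nfyc locus, 99.6% and 99.5% at the chromosome 1 locus, and 98.1% and 97.7% at the chromosome 15 locus. The loci summed to 34024 ± 3913.7 CPM on chromosome 4, 15053 ± 2039 on chromosome 1 and 10248 ± 1119 on chromosome 15. The host RNAs themselves were not measured, since the tables hold miRNA genes only.

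Sequence shared between loci bears directly on the counts of Mir30c-1 and Mir30c-2. Reads that mapped to several places were tallied apart from the genes in these tables. They numbered 2496903 in replicate 1 and 2190149 in replicate 2, which is 8.97 and 10.5 times the reads assigned to the whole miR-30 family. How many of them came from miR-30c cannot be read from the tables. The hairpins of both miR-30c genes are shown with the stretch that is identical between them in capitals, written 5′ to 3′.
Mir30c-1 (chr4:120769534-120769622, minus strand): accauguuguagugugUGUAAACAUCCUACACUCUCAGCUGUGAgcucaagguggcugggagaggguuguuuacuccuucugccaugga
Mir30c-2 (chr1:23291701-23291784, plus strand): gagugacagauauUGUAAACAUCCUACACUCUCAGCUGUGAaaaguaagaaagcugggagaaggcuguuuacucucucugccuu
The shared stretch of 28 bases spans all 23 bases of miR-30c-5p, and the labels give the library size range as below 30. A read that lies within it matches both genes equally well.

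By exact matching, the remaining arms of the 4 members with sequences could be told apart. The arms of Mir30a and Mir30e differ at 1 of 22 bases, in 5p and in 3p, and how mismatches were treated in alignment is not known. Of the 7 distinct mature arms of the 4 members with sequences, miR-30c-5p was the single arm found in full in more than 1 of the 1005 hairpins of the table, and the same held for the first 18 bases of each arm. miR-30c-1-3p and miR-30c-2-3p differed by G9A, U12C and C22U. Of the windows of 22 bases along the hairpins, 7 of 68 in Mir30c-1 and 7 of 63 in Mir30c-2 were also in the other gene. None of the 22-base windows of Mir30a (50) or Mir30e (71) was in another hairpin of the table. Mir30f, annotated over the bases of Mir30e on the opposite strand, did not count as another hairpin in these searches. Windows of 18 bases gave 11 shared of 72 for Mir30c-1, 11 of 67 for Mir30c-2, 1 of 54 for Mir30a and 1 of 75 for Mir30e. The last 2 are the same window, which begins just before the 3p arm and covers its first 17 bases. A read of no more than these 18 bases would match both Mir30a and Mir30e. An exact miR-30c-5p read lies within the shared stretch, so it would be tallied apart from both genes. The assigned reads of Mir30c-1 and Mir30c-2 would then come from elsewhere in the hairpin or reach beyond that stretch. With 1 count per gene, which of these they were is unknown. Their levels and shares of the family are uncertain and may be too low. The ratios of Mir30e and Mir30a to them are uncertain and may be too high. Mir30b and Mir30d were not compared by sequence, and places outside annotated hairpins were not searched.

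**Figure D4:**
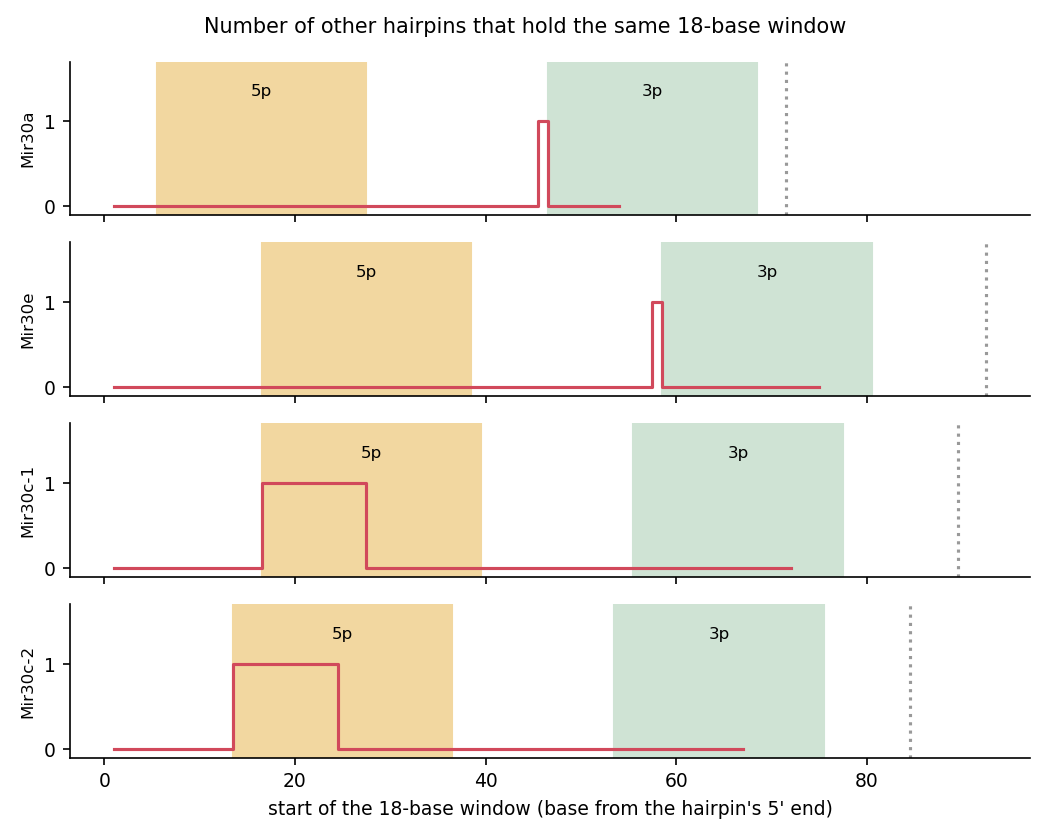
For each 18-base window along a hairpin, by its first base from the 5′ end, the number of other hairpins of the sequence table that hold the same window on either strand. Mir30f, annotated opposite Mir30e, is not counted. Shading marks the 5p and 3p arms and dotted lines the hairpin's end: the 11 shared windows of each miR-30c gene begin within the 5p arm, and Mir30a and Mir30e share 1 window that begins just before the 3p arm.

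All reads assigned to miR-30 genes lay on the counted strand. The opposite strand had 0 counts for 6 of 6 members in both libraries, as it had for 91.7% of the 337 detected genes. At these depths a count of 0 leaves room for a level of about 0.693 CPM (replicate 1) or 0.781 CPM (replicate 2), the value of 3 reads. These 3 reads are close to the upper 95% Poisson limit on 1 side and are not a maximum. The gene Mir30f is annotated on the plus strand across the same bases as Mir30e and has no entry in the tables. Of other miRNAs with the same bases 2 to 8, the sequence table held Mir384 on the X chromosome (miR-384-5p, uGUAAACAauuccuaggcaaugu), which had 2 counts in replicate 1 and 5 in replicate 2. Mir30f carries the same 7 bases from position 1, so that its bases 2 to 8, UAAACAU, are displaced by 1.

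The abundant members were lower in replicate 2, and for the scarce members no difference between the libraries was detectable at this depth. The ratio of replicate 2 to replicate 1 was 0.825 for Mir30a (0.815 to 0.834), 0.849 for Mir30e (0.843 to 0.855) and 0.853 for Mir30d (0.841 to 0.864). It was 1.07 for Mir30b (0.974 to 1.18), 1.08 for Mir30c-1 (0.945 to 1.23) and 0.987 for Mir30c-2 (0.827 to 1.18), with intervals that include 1. Scaled by median-of-ratios size factors in place of the total, the ratios of Mir30b and Mir30c-1 fell just below 1, at 0.990 and 0.995. With size factors 6 of 6 members had a ratio below 1. The share of detected genes below 1 was not computed under that scaling. It moved the median log2 ratio of the 337 detected genes from 0.079 to -0.034. Scaled by the total, 4 of 6 members had a ratio below 1, against 40.4% of the 337 detected genes. An interval wholly below 1 was found for 3 of 6, against 19.6%. Among the 26 genes of at least 5000 CPM, a limit chosen after the values were seen and met by Mir30a, Mir30d and Mir30e, 61.5% had such an interval, so a lower level in replicate 2 was common among abundant genes. Mir351 (0.747) and Mirlet7d (0.805) were the 2 of these 26 with a ratio below that of Mir30a. In bulk tissue, fewer cells of a type and less RNA per cell cannot be told apart, and with 2 libraries these ratios describe the libraries alone.

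**Figure D5:**
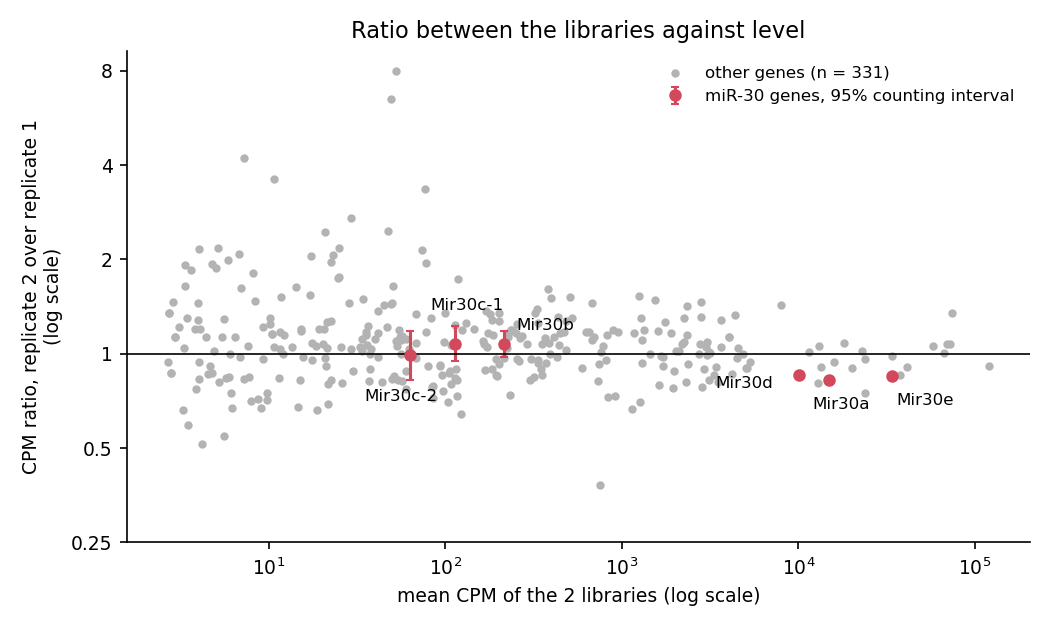
Ratio of CPM in replicate 2 to replicate 1 against mean CPM for the 337 detected genes, both on log axes, with miR-30 genes in red and their exact 95% counting intervals. Mir30a, Mir30d and Mir30e lie at 0.825 to 0.853 and the other 3 members at 0.987 to 1.08.

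Proportions among the abundant members were steadier than their levels. Mir30e exceeded Mir30a by 2.23 times (2.21 to 2.25) in replicate 1 and by 2.30 times (2.27 to 2.32) in replicate 2, a change of 2.95%. It exceeded Mir30d by 3.39 times (3.35 to 3.42) and 3.37 times (3.33 to 3.41), intervals that overlap. The ratio of Mir30a to Mir30d changed by 3.28%. By contrast the ratio of the first to the second gene of a pair was lower in replicate 2 by 21.2% for Mir30e to Mir30c-1, 20.4% for Mir30d to Mir30b and 16.5% for Mir30a to Mir30c-2. Among the scarce members, Mir30b to Mir30c-1 changed by 0.52% and Mir30c-1 to Mir30c-2 by 9.11%, each with overlapping intervals. A small change was therefore not limited to the abundant members.

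The libraries held 8150499 reads (replicate 1) and 7269505 (replicate 2), of which 4327424 and 3839984 counted toward a gene on the strand used. Heart muscle markers were present, with the 8 listed genes summing to 75763 CPM in replicate 1 and 79365 in replicate 2, led by Mir208b, and 5 of 8 detected. Within that list the genes of miR-1 and miR-133 stood at 0.462 to 3.91 CPM. Reads that mapped to several places are absent from these counts, and the marker genes were not compared by sequence. Low counts of genes with numbered copies, such as Mir133a-1 and Mir133a-2, therefore do not show a low level of the miRNA. The same holds for Mir1b and Mir133b, whose sequences were not compared either. Markers of other cells differed between the libraries alongside the miR-30 levels. The erythroid pair Mir451a and Mir144 summed to 1184 CPM in replicate 1 and 489 in replicate 2, and 2 of 2 were lower in replicate 2. The 7 epithelial genes summed to 667 and 1142 CPM, and 7 of 7 were higher in replicate 2. Smooth muscle markers (2 of 2 higher) summed to 64494 and 87098 CPM and the endothelial Mir126a stood at 69932 and 75015. White blood cell markers summed to 479 and 389 CPM. Fibroblast and mesenchyme markers summed to 27979 and 27246 CPM, led by Mir21a, though 3 of 5 were higher in replicate 2. Skeletal muscle Mir206 stood at 15.7 and 34.1 CPM, and liver Mir122 at 38.4 and 44.5. Of 6 neuronal genes 5 had 0 counts in both libraries, and the other, Mir137, stood at 13.2 and 85.7 CPM. Those 5 are numbered copies of Mir124a and Mir9, to which the same limit on reads mapping to several places may apply. Their 0 counts therefore do not show that these miRNAs were absent. The part of these cell types in the miR-30 differences was not tested.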

How the data were processed

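Small RNA reads of 2 embryonic heart libraries were analysed from the deposited tables of raw read counts per miRNA gene. Per the deposited descriptions, these refer to mm10 and GENCODE M4, and the sources used here do not give the aligner or counter. The tables hold both strands together and each strand alone. The strand column with the larger total was used (53.1% and 52.8% of all reads), and lines naming no gene, of which reads mapping to several places (30.6% and 30.1% of all reads) were the largest, were left out of totals. CPM was computed from those counts. Symbols and positions came from GENCODE M21 (1894 of 1973 genes named), sequences from RefSeq (GRCm38.p6).

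With 1 group no test was made: means ± SD (n = 2) are given, with exact Poisson and binomial 95% intervals. The binomial interval was tested on simulated counts that held counting error alone. A planted shared stretch was recovered from simulated sequences. The Poisson intervals and the arm and window searches were not tested on simulated data. The members, marker lists and rules were chosen with earlier results of these data known. Named genes were the members, genes of the same seed, the nearest genes in level and the marker lists. Mir351 and Mirlet7d were named after their values were seen. Alternatives used TMM factors (edgeR 4.0.16), size factors (DESeq2 1.42.0), other totals, unstranded counts, other count minimums and each replicate left out (R 4.3.3, Python 3.11.15, scipy 1.17.1).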

Additional observations from a re-analysis of the deposited data

How the results depend on the processing

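The summed level of the miR-30 family, 59326 CPM, became 67426 when the most abundant gene was left out of the total and 31425 when all reads of the library were the total. Under unstranded counts, TMM factors and size factors it moved by less than 1 SD (56564 to 59462), and with 1 replicate left out it was 54325 and 64326. Unstranded counts could not change the 3 ratios within pairs, since no member had a count on the opposite strand. The ratios ranged from 264 to 335 for Mir30e to Mir30c-1, from 217 to 259.5 for Mir30a to Mir30c-2 and from 41.8 to 52.5 for Mir30d to Mir30b with a replicate left out. The count of members lower in replicate 2 was 4 under all alternatives except size factors, which gave 6. Size factors shifted the median log2 ratio of all detected genes by -0.11, to -0.034. They put Mir30b at 0.99 and Mir30c-1 at 0.995, so the direction of these members between libraries is not settled. The levels of all 6 members moved by over 1 SD with each change of total, as did that of Mir30c-2 with unstranded counts, and none of the 6 did with TMM or size factors. With n = 2, leaving out a replicate cannot move a mean by over 1 SD. No genome sequence was used, so arms were matched among annotated hairpins only. No paired analysis was possible because there is 1 group. Counts of 240 to 893 limit the 3 scarce members.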
